A study of Mus musculus with 19 samples.

Results

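Ndnf, Slco1a6, Slco1a5, Tns4, Mrgprf, Kcnj16 and Atp1b2 are 7 of the 19716 genes measured by RNA sequencing in mouse embryonic fibroblasts. They were picked by name because their RNA was much lower after a triple knockdown of Sec24a, Sec24b and Sec24c, and for some also after a knockdown of Sec24b alone. Their values in these comparisons chose them and are given here as a description, with no test. All 7 were among the 19635 genes that passed the filter on low values, which kept genes with a normalised count of at least 1 in at least 4 libraries.

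All cells came from a Sec24D knockout fibroblast line of mouse embryo and were transfected with siRNA, short RNA duplexes that lower a matching transcript. The 19 libraries fell into 4 groups, all labelled 48 h. Controls received scrambled siRNA at 50 nM (n = 4) or 150 nM (n = 5). The Sec24B knockdown (n = 5) received siRNA against Sec24B, and the triple knockdown (n = 5) siRNAs against Sec24A, Sec24B and Sec24C. The labels give 50 nM for SEC24 siRNAs without saying whether this is for each siRNA or in total, and they name 1 cell line without saying whether it is a single clone. Nothing in the labels states that the replicates were grown separately, so the p-values may cover only technical spread.

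SEC24 proteins are the cargo-selecting subunits of COPII, the coat of the vesicles that leave the endoplasmic reticulum. Membrane and secreted proteins depend on this route, and all but 1 of the 7 genes encode such a protein. Ndnf encodes a secreted glycoprotein first described as a neurotrophic factor. Slco1a5 and Slco1a6 encode organic anion transporting polypeptides, multi-pass carriers that take up bile acids, steroid conjugates and thyroid hormones. Kcnj16 encodes Kir5.1, an inwardly rectifying potassium channel subunit that assembles with other Kir subunits, and Atp1b2 encodes a beta subunit of the sodium-potassium pump. Mrgprf encodes an orphan G protein-coupled receptor of the Mas-related family. Tns4 is the exception: it encodes tensin 4 (Cten), a cytoplasmic protein that binds integrin tails and lacks the actin-binding part of the larger tensins.

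The coding sequences of Slco1a5 and Slco1a6 are printed first because these neighbouring genes are similar in sequence and were low in the same libraries. Some reads from one could therefore be counted for the other. Both genes lie on the minus strand of chromosome 6 (GRCm38), Slco1a6 at 142085761 to 142208521 and Slco1a5 at 142234227 to 142322981. Their coding sequences are 2010 bases long each and 86.7% identical when aligned. Of the 2766 words of 50 bases in Slco1a6 transcripts, 79 (2.86%) also occur in Slco1a5, and these are 3.13% of the 2523 words of Slco1a5. Slco1a5 is closer to Slco1a4 (89.4%) and Slco1a1 (88.0%), which were not analysed here. How reads that match several genes were counted is not given in the sources used here, so the separate levels of Slco1a5 and Slco1a6 are uncertain to that extent. The first 120 coding bases of each, from GENCODE M21 (GRCm38), start with the ATG codon and differ at 20 positions, marked by capitals.
Slco1a5: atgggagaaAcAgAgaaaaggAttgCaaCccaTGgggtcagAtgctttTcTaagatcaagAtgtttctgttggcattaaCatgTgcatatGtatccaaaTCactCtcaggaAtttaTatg
Slco1a6: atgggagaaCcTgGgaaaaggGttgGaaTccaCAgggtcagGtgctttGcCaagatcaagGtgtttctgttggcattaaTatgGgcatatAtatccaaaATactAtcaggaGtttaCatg

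Promoter windows of 300 bases (250 before and 50 after an annotated start; RefSeq, GRCm38.p6) are shown for the same pair, since they were low together. RefSeq windows were matched for 3 of the 7 genes, Slco1a6, Slco1a5 and Kcnj16. Slco1a5 has 2 annotated starts and so 2 windows. The capitals mark matches to the CCAAT box and to the TATA box (TATAAA), searched on both strands, so that a match may show as the reverse complement. The Slco1a6 window is at chr6:142186100-142186399, the upstream Slco1a5 window at chr6:142322932-142323231 and the downstream one at chr6:142278825-142279124, all on the minus strand.
Slco1a6 promoter: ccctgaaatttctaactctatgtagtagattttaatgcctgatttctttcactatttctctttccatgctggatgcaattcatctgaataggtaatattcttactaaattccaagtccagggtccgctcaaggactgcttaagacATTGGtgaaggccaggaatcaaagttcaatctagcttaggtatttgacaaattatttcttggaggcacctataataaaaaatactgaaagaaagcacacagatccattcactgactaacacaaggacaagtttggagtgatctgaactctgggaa
Slco1a5 upstream promoter: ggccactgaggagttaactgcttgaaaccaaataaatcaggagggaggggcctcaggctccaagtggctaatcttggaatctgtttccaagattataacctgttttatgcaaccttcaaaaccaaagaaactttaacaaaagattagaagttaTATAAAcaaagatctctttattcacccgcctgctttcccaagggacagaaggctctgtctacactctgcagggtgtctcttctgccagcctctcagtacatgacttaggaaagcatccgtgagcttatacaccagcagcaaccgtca
Slco1a5 downstream promoter: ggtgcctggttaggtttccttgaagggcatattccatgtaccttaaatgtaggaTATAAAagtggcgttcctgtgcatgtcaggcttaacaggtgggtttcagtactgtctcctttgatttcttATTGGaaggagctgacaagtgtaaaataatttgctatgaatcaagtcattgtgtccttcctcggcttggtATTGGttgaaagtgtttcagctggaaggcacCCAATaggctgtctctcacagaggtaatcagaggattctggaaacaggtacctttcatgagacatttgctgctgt
Slco1a6 has 1 match, to the first of these, which begins 105 bases before the start. The upstream Slco1a5 window has 1 TATA box match, 97 bases before the start. The downstream Slco1a5 window has a TATA box match at 196 bases before the start and 3 matches to the other motif, at 126, 56 and 25 bases. Of the 32851 windows of this length, 37.4% hold a CCAAT match and 13.6% a TATA box match, so both are common. None of the printed windows holds TGACTCA (AP-1; 5.2% of all windows), GGAATG (TEAD; 14.7%), CACGTG (E-box; 7.15%) or TGATGNAA (ATF4-CEBP; 3.97%). GC content was 37.3% in the Slco1a6 window and 44.3% and 43.3% in the upstream and downstream Slco1a5 windows, against a median of 52.7% over all windows.

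Summed over the 19716 genes, 9101855 to 19709672 reads per library were recovered from the scaled values. In these values 1 read was worth 0.736 to 1.64 normalised counts. At this depth a gene with a mean of a few normalised counts rests on few reads per library. Sec24b RNA fell in the Sec24B knockdown (log2 fold change -1.21 ± 0.10, SE; limma adjusted p = 2.01e-08) and in the triple knockdown (-1.29 ± 0.10; 1.31e-10), where Sec24c (-1.79 ± 0.05; 1.21e-17) and Sec24a (-0.76 ± 0.13; 4.94e-05) fell as well. Sec24d RNA was counted in all groups although the cells are labelled as Sec24D knockout: its mean was 428 ± 35.5 (SD, n = 4) with 50 nM and 465 ± 26.1 with 150 nM scrambled siRNA, 452 ± 136 after the triple and 451 ± 62.4 after the Sec24B knockdown (n = 5 each). The part of the gene that was altered is not given in the sources used here, so a count over the whole gene does not check the knockout. Replicate 1 of the triple knockdown stood apart: its median correlation with the other libraries of its group was 0.971, against 0.987 or more for every other library. Of 10 fibroblast markers 9 were measured, and Col1a1 had a group mean of 84990 to 184100 normalised counts. Of these 9, Col1a1, Col1a2, Col3a1 and Pdgfrb fell in the triple knockdown (limma), beside 17.2% of all genes; Vim (log2 difference -0.18), Pdgfra (-0.12), S100a4 (-0.34), Lum (-1.14) and Dcn (0.34) did not pass. Their summed normalised count, most of it from Col1a1, Col1a2 and Vim, was 200100 to 237700 in the triple knockdown and 310600 to 396700 in the other groups. In RNA from whole cultures, fewer cells of a kind and less RNA per cell cannot be told apart. The summed macrophage markers (3 of 5 measured; Ptprc and Adgre1 were not analysed here) reached 124.5 to 157.2 in the 150 nM control and 56.6 to 92.1 elsewhere; most of this was Cd68, with a mean of 112 in the 150 nM control, and Lyz2 had means of 3.79 or less. In the triple knockdown Cd68 and Csf1r fell, and the part of either marker list in the results below was not tested.

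In the triple knockdown every library of all 7 genes was below every library with 150 nM scrambled siRNA. Over all genes tested this was so for 11.7%, while 34.0% passed the test in either direction and 2.85% had a log2 fold change of -1 or lower. In the Sec24B knockdown 4 of the 7 (Ndnf, Slco1a6, Slco1a5 and Tns4) had all libraries below those with 50 nM scrambled siRNA, against 9.13% of all genes, while Mrgprf, Kcnj16 and Atp1b2 overlapped their controls. In both knockdowns, 4.04% of all genes were below the scrambled control used for that knockdown without overlap. The genes were chosen for these falls, so nothing is read from the counts. Ranked by log2 fold change in the triple knockdown among the 12723 genes with a mean of at least 20 in the 150 nM control, Tns4 was first, followed by Slco1a6, Ndnf, Mrgprf and, at rank 6, Kcnj16. The first place of Tns4 rests on its 0 in 1 library and on the method. Without triple knockdown replicate 1 its difference was -2.42, beside -2.88 for Slco1a6 and -2.77 for Ndnf, and with edgeR it was -2.75, beside -3.17 and -2.89. Among the 7, Tns4 was lowest in 22 of 29 other settings, Slco1a6 in 6 and Ndnf in 1. Many of these settings, such as leaving out a 50 nM or Sec24B knockdown library, cannot change these differences. The count therefore does not measure how stable the order is. Slco1a5 stood at rank 25, and Atp1b2 was under the minimum (rank 9 of all 19635). Between and just after them stood Fdps (rank 5), which makes farnesyl diphosphate in the mevalonate pathway, Kcnj2 (7), another inward rectifier, Oacyl (8) and Ivl (9), the cornified envelope protein involucrin.

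**Figure D1:**
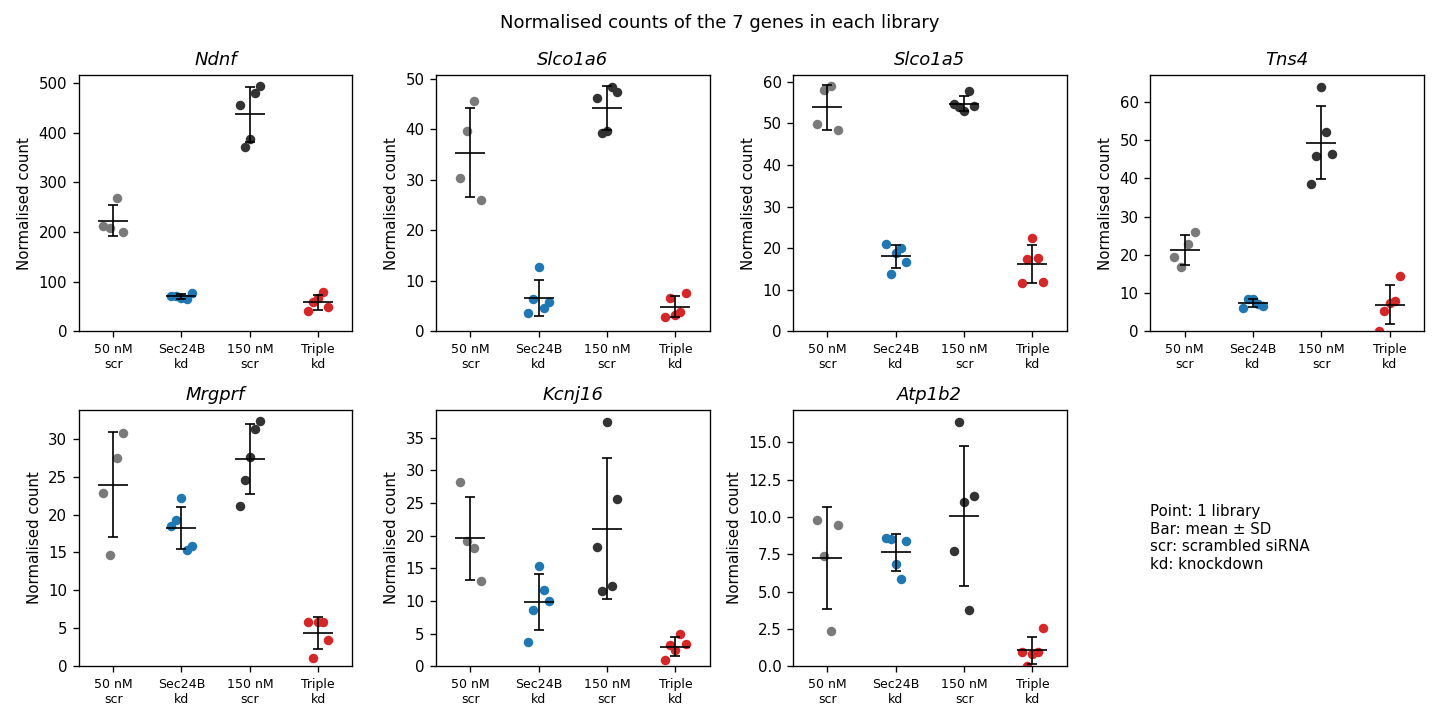
Normalised read counts (y axis, linear from 0, own scale per panel) of the 7 genes in each of the 19 libraries, by group; points are libraries and bars the mean ± SD. In the triple knockdown all 5 points of each gene lie below the 5 points with 150 nM scrambled siRNA, and for Ndnf, Slco1a6, Slco1a5 and Tns4 the Sec24B knockdown points lie below those with 50 nM as well.

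Ndnf, the secreted factor, had the highest mean normalised count of the 7 in every group. Per kilobase of exon, its Sec24B knockdown mean of 6.96 was below the 8.22 of Mrgprf. The normalised counts of Ndnf were 213, 209, 268 and 201 with 50 nM scrambled siRNA and 456, 370, 387, 479 and 494 with 150 nM. They were 71.3, 71.6, 66.5, 65.7 and 76.9 in the Sec24B knockdown and 40.8, 59.7, 66.4, 79.6 and 49.1 in the triple knockdown. The 150 nM libraries lay above all 50 nM libraries, these lay above all knockdown libraries, and both knockdowns overlapped each other. The means were 223 ± 30.6 (SD, n = 4), 437 ± 55.6, 70.4 ± 4.50 and 59.1 ± 15.1 (n = 5 each), so RNA in the triple knockdown was 13.5% of its control. On the log2 scale of normalised count plus 1, the difference was -2.89 ± 0.14 (SE) in the triple and -1.64 ± 0.15 in the Sec24B knockdown. Ndnf lies on the plus strand of chromosome 6 at 65671590 to 65712326.

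Slco1a6, 1 of the transporter pair, was at 30.4, 39.7, 45.6 and 26.0 with 50 nM scrambled siRNA and at 46.1, 39.3, 39.7, 48.3 and 47.5 with 150 nM. In the Sec24B knockdown it was at 3.69, 6.41, 12.8, 4.69 and 5.85, and in the triple knockdown at 2.91, 6.52, 3.32, 3.93 and 7.62. Every knockdown library was below every control library, the controls overlapped each other, and so did the knockdowns. The mean was 35.4 ± 8.87 (n = 4) and 44.2 ± 4.36 in the controls against 6.69 ± 3.57 and 4.86 ± 2.09 in the Sec24B and triple knockdowns (n = 5 each). The log2 differences were -3.01 ± 0.28 in the triple and -2.32 ± 0.30 in the Sec24B knockdown, the latter the lowest of the 12701 genes with a mean of at least 20 in the 50 nM control. The triple knockdown mean rests on 26 reads in 5 libraries (95% Poisson interval 16.98 to 38.1, counting error only).

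Slco1a5, the neighbouring transporter, was at 50.0, 58.1, 58.9 and 48.4 with 50 nM scrambled siRNA and 54.8, 54.1, 52.9, 57.8 and 54.1 with 150 nM. It was at 20.9, 13.9, 18.8, 19.95 and 16.7 in the Sec24B knockdown and at 11.7, 17.4, 22.4, 17.7 and 11.9 in the triple knockdown. As with Slco1a6, the controls overlapped each other, the knockdowns overlapped each other, and no knockdown library reached a control. The mean level was 53.9 ± 5.44 (n = 4) and 54.7 ± 1.85 in the controls against 18.04 ± 2.80 and 16.2 ± 4.52 in the Sec24B and triple knockdowns (n = 5 each). The log2 differences were -1.74 ± 0.18 in the triple and -1.53 ± 0.19 in the Sec24B knockdown. Slco1a5 kept a larger share of its control level in the triple knockdown (29.6%) than Slco1a6 (11.0%). Per kilobase of exon, the 150 nM control level was 14.7 normalised counts for Slco1a5 and 11.6 for Slco1a6, and in the triple knockdown 4.35 and 1.28.

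Tns4, the short tensin, was at 19.6, 16.9, 22.8 and 26.0 with 50 nM scrambled siRNA and 38.5, 45.9, 63.9, 52.1 and 46.5 with 150 nM. The Sec24B knockdown gave 6.15, 8.55, 8.53, 7.04 and 6.68, and the triple knockdown 0, 5.43, 7.47, 7.86 and 14.4. Here too the order was 150 nM control, 50 nM control, then both knockdowns, which overlapped each other; the triple knockdown libraries spread more widely than those of the Sec24B knockdown. The means were 21.3 ± 3.93 (n = 4), 49.4 ± 9.47, 7.39 ± 1.10 and 7.03 ± 5.18 (n = 5 each). The log2 difference was -3.06 ± 0.44 in the triple and -1.40 ± 0.46 in the Sec24B knockdown. Both errors come from a spread shared by all 4 groups, which includes the 0 in the triple knockdown. The value of 0 belongs to replicate 1, the library that stood apart; without it the triple knockdown difference was -2.42. Tns4 lies on the minus strand of chromosome 11 at 99065678 to 99089306.

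Mrgprf, the orphan receptor, was at 22.8, 14.7, 27.5 and 30.7 with 50 nM scrambled siRNA and at 21.2, 24.6, 27.5, 31.3 and 32.3 with 150 nM. It was at 18.4, 19.2, 22.2, 15.3 and 15.9 in the Sec24B knockdown but at 5.83, 1.09, 5.81, 5.89 and 3.39 in the triple knockdown. Only the triple knockdown stood clear of the other groups, among which neighbours in the order overlapped. The means were 23.9 ± 6.95 (n = 4), 27.4 ± 4.63, 18.2 ± 2.78 and 4.40 ± 2.14 (n = 5 each), and the log2 difference was -2.51 ± 0.29 in the triple and -0.34 ± 0.31 in the Sec24B knockdown. The gene is on the plus strand of chromosome 7 at 145300828 to 145309557.

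Kcnj16, the Kir5.1 subunit, had 28.3, 19.1, 18.1 and 12.99 normalised counts with 50 nM scrambled siRNA and 18.3, 11.5, 37.5, 12.3 and 25.6 with 150 nM. The Sec24B knockdown had 3.69, 8.55, 15.4, 11.7 and 10.0, and the triple knockdown 0.97, 3.26, 2.49, 4.91 and 3.39. The Sec24B knockdown lay between the control and the triple knockdown in mean and overlapped both. The means were 19.6 ± 6.35 (n = 4), 21.0 ± 10.8, 9.87 ± 4.29 and 3.00 ± 1.44 (n = 5 each), with a log2 difference of -2.41 ± 0.36 in the triple and -0.99 ± 0.39 in the Sec24B knockdown. The triple knockdown mean rests on 16 reads (9.15 to 26.0). Kcnj16 is on the plus strand of chromosome 11 at 110968033 to 111027968.

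Atp1b2, the pump subunit, had the lowest mean of the 7 in both controls and in the triple knockdown, while in the Sec24B knockdown Slco1a6 and Tns4 were lower. It was at 9.78, 7.36, 2.36 and 9.45 with 50 nM scrambled siRNA and 7.69, 16.4, 11.02, 3.79 and 11.4 with 150 nM. The Sec24B knockdown gave 8.61, 8.55, 6.82, 5.87 and 8.36, and the triple knockdown 0.97, 0, 0.83, 0.98 and 2.54. The Sec24B knockdown lay within the range of the controls, and the triple knockdown overlapped the 50 nM control through 1 library at 2.36. The means were 7.24 ± 3.42 (n = 4), 10.1 ± 4.68, 7.64 ± 1.23 and 1.06 ± 0.919 (n = 5 each), and the log2 difference was -2.41 ± 0.38 in the triple and 0.19 ± 0.41 in the Sec24B knockdown. Only 6 reads in 5 libraries (95% Poisson interval 2.20 to 13.1) support the triple knockdown level, so the size of the fall is poorly fixed. Atp1b2 is on the minus strand of chromosome 11 at 69599736 to 69605942.

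Set directly against the Sec24B knockdown, the triple knockdown was lower without overlap for Mrgprf (log2 difference -1.95) and Atp1b2 (-2.17), against 10.8% of all genes. Kcnj16 differed by -1.42 and overlapped, though not without triple knockdown replicate 4 or without Sec24B knockdown replicate 1. Ndnf (-0.28), Slco1a6 (-0.36), Slco1a5 (-0.17) and Tns4 (-0.49) overlapped. These differences were not tested. The sign for Tns4 rests on the 0 in triple knockdown replicate 1: without that library the means were 8.79 and 7.39 and the difference was 0.16. The labels do not say whether both groups received the same total amount of siRNA.

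**Figure D2:**
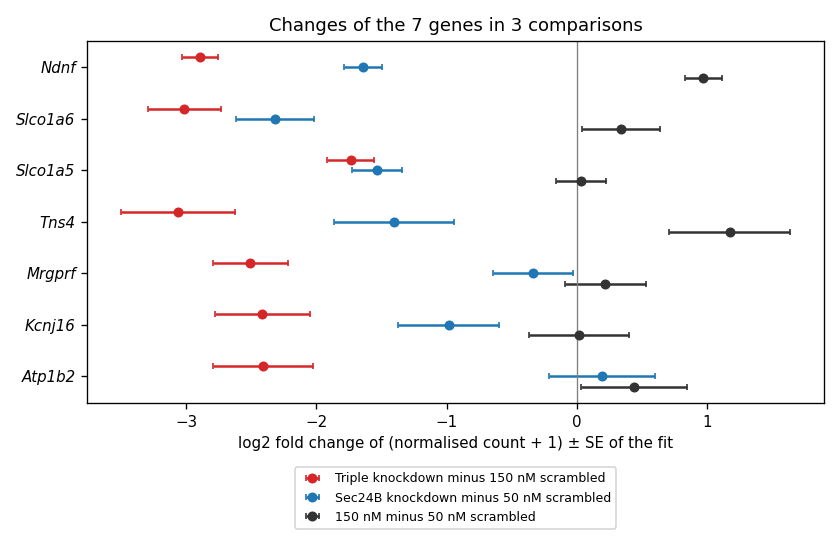
Differences on the log2(normalised count + 1) scale (x axis) for the 7 genes; points are estimates of the fit over 19 libraries, bars ± 1 SE, and colours the comparison. The triple knockdown values run from -3.06 to -1.74, the Sec24B knockdown values from -2.32 to 0.19, and the values for scrambled dose from 0.01 to 1.17.

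Between the scrambled siRNA doses, Ndnf and Tns4 were higher at 150 than at 50 nM, with all 5 libraries above all 4. Over all genes, 8.85% passed the threshold of 0.05 between doses, 4.75% higher and 4.10% lower at 150 nM, and 6.96% had all 150 nM libraries above all 50 nM libraries. Both scrambled groups entered the comparisons that chose the 7 genes, and a choice by falls from the 150 nM level favours genes that are high there, so the dose differences are given with no test and nothing is read from them. The log2 difference, 150 minus 50 nM, was 0.97 ± 0.15 for Ndnf and 1.17 ± 0.46 for Tns4. The error for Tns4 comes from the spread shared by all 4 groups, which includes its 0 in triple knockdown replicate 1. The groups overlapped for Slco1a6 (0.34 ± 0.30), Slco1a5 (0.03 ± 0.19), Mrgprf (0.22 ± 0.31), Kcnj16 (0.01 ± 0.39) and Atp1b2 (0.44 ± 0.41). Because Ndnf was higher in the 150 nM control than in the 50 nM control, its triple knockdown difference was measured from a higher base than its Sec24B difference, although the knockdown levels overlapped.

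Other transporters of the organic anion transporting family were mostly not analysed here: 5 of 13 listed relatives were tested. In limma 0 rose in the triple knockdown and 2 fell, beside 16.8% and 17.2% of all genes; the median of the 5 was -0.43, against 0.01 over all genes. For these transporters, and for the pump and tensin lists below, 0 genes rose in the triple knockdown at an unadjusted p under 0.05 as well. With edgeR or DESeq2 0 rose too, beside 6665 and 6714 of 19635 genes that passed in either direction. The share of all genes at an unadjusted p is not given here. Slco2a1, the prostaglandin transporter, was at 419, 541, 486, 499 and 464 with 150 nM scrambled siRNA and at 146, 243, 223, 223 and 205 in the triple knockdown. It fell without overlap (-1.22 ± 0.11, limma adjusted p = 2.70e-09), and it fell in the Sec24B knockdown too (-0.50 ± 0.11, 0.00339). Slco3a1 fell in the triple knockdown (-0.43 ± 0.07, 3.22e-05), and its Sec24B value of 0.17 ± 0.07 did not pass (0.144). Slco4a1, a carrier of thyroid hormones, had -1.06 ± 0.45 in the triple knockdown and did not pass (0.0752), and Slco5a1 was near the detection limit with means under 1.09.

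Of 14 listed sodium-potassium pump genes other than Atp1b2, 5 were tested. In the triple knockdown 0 rose and 3 fell (median -0.64), beside 16.8% and 17.2% of all genes. Atp1b1, the widely expressed beta subunit, was at 1544, 1459, 1483, 1524 and 1538 with 150 nM scrambled siRNA and at 679, 723, 748, 719 and 771 in the triple knockdown. It fell by a log2 difference of -1.05 ± 0.05 (limma adjusted p = 2.61e-14), and Atp1b3, another beta subunit, by -0.89 ± 0.05 (3.30e-13). In the Sec24B knockdown Atp1b1 (-0.28 ± 0.05, 0.000545) and Atp1b3 (-0.23 ± 0.05, 0.00284) fell as well, whereas Atp1b2 had 0.19 with a wide error. Fxyd5, a small regulator of the pump, fell in the triple knockdown (-0.38 ± 0.10, 0.00442) and rose at the higher scrambled dose (0.40 ± 0.11, 0.0181). Its triple knockdown mean of 450 ± 60.6 (SD, n = 5) was near the 444 ± 70.1 (n = 4) with 50 nM scrambled siRNA, against 583 ± 60.8 (n = 5) with 150 nM.

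Of 14 listed inward rectifier genes other than Kcnj16, 4 were tested. In the triple knockdown 2 fell and 1 rose (median -0.59), beside 17.2% and 16.8% of all genes. Kcnj2, which encodes Kir2.1, a channel that sets the resting membrane potential, was at 118, 98.3, 123, 116 and 122 with 150 nM scrambled siRNA. In the triple knockdown it was at 14.6, 29.3, 24.1, 34.4 and 15.2, far below its control in all 5 libraries. It fell there (-2.32 ± 0.19, limma adjusted p = 5.35e-10) and in the Sec24B knockdown (-0.75 ± 0.20, 0.0111), where it was at 65.2, 57.7, 56.3, 77.5 and 81.9 against 125, 109, 123 and 96.8. Kcnj4 (Kir2.3) rose in the triple knockdown (0.81 ± 0.12, 1.12e-05), in the Sec24B knockdown (0.60 ± 0.13, 0.00210) and with scrambled dose (0.76 ± 0.13, 0.000375). Kcnj15 fell in the triple knockdown (-0.59 ± 0.21, 0.0302), a call that was lost in 8 of 29 other settings, and at the higher scrambled dose (-1.03 ± 0.22, 0.00372). Kcnj14 did not pass (-0.59 ± 0.41, 0.292).

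All 18 tensin and focal adhesion genes listed beside Tns4 were tested. In the triple knockdown 12 fell and 0 rose, beside 17.2% and 16.8% of all genes, with a median of -0.26. In the Sec24B knockdown, where 14.6% of all genes passed (7.08% lower and 7.53% higher), Itgb1 fell and Tns3 and Ilk rose. Between the scrambled doses 0 passed in limma (7 at an unadjusted p under 0.05), 0 with edgeR and 1 with DESeq2, but 4 passed in limma without triple knockdown replicate 1. Over all genes 8.85% passed in limma, and 2682 of 19635 without that library. The larger tensins, which link integrins to actin, fell in the triple knockdown: Tns1 by -0.70 ± 0.10 (limma adjusted p = 1.06e-05), Tns2 by -0.34 ± 0.07 (0.000683) and Tns3 by -0.36 ± 0.07 (0.000202). The Sec24B value was 0.27 ± 0.07 (0.0137) for Tns3 and 0.28 ± 0.05 (0.000369) for Ilk, the integrin-linked kinase, while Tns1 (-0.06 ± 0.11, 0.818) and Tns2 (0.02 ± 0.08, 0.901) did not pass. Egfr (-0.61 ± 0.10, 5.31e-05), the epidermal growth factor receptor, Dlc1 (-0.48 ± 0.09, 0.000133), a GTPase-activating protein bound by tensins, and Itgb1 (-0.39 ± 0.07, 0.000131), the beta 1 integrin, fell in the triple knockdown too. Itgb1 was lower in the Sec24B knockdown as well (-0.30 ± 0.08, 0.00857).

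**Figure D3:**
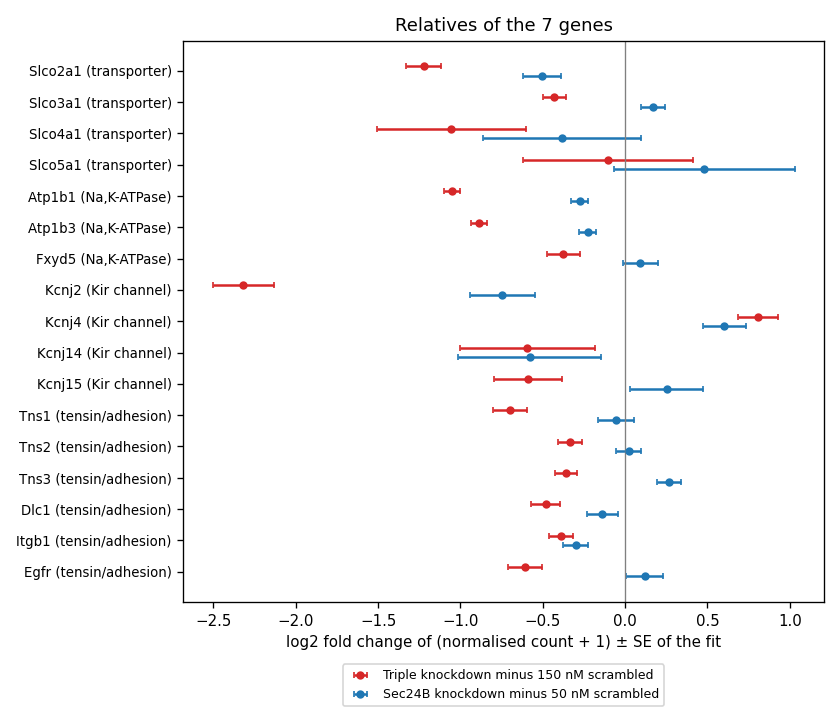
Differences on the log2(normalised count + 1) scale (x axis, ± 1 SE) of relatives of the 7 genes in the triple knockdown (red) and the Sec24B knockdown (blue), each against its scrambled control. Kcnj2 is lowest at -2.32, Atp1b1 and Slco2a1 are at -1.05 and -1.22, and Kcnj4 is higher in both knockdowns.

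For Ndnf, whose product is reported to dampen fibroblast growth factor (FGF) signalling, 17 genes of FGF ligands, receptors and feedback were listed and tested. In the triple knockdown 2 rose and 6 fell, beside 16.8% and 17.2% of all genes. Those that rose were Spry1 (1.23 ± 0.11, limma adjusted p = 3.66e-09), a feedback inhibitor of receptor tyrosine kinases, and the transcription factor gene Etv5 (0.87 ± 0.11, 1.44e-06). The ligand genes Fgf10 (-0.61 ± 0.11, 8.71e-05) and Fgf7 (-0.46 ± 0.08, 7.58e-05) fell. So did Dusp6 (-0.51 ± 0.10, 0.000231), Frs2 (-0.30 ± 0.09, 0.00721), Spry2 (-0.22 ± 0.07, 0.0131) and Fgfrl1 (-0.24 ± 0.08, 0.0282). Dusp6 was higher at the higher scrambled dose (0.45 ± 0.10, 0.00671). Its triple knockdown mean of 435 was near the 447 with 50 nM, against 615.5 with 150 nM scrambled siRNA. For Fgfrl1 these means were 419.8, 420.4 and 497. Measured from the 150 nM control, feedback genes thus changed in both directions. Without triple knockdown replicate 1, 4 rose and 6 fell, while 6331 of 19635 genes passed in either direction. At the higher scrambled dose 6 of the 17 rose, beside 4.75% of all genes, Etv5 among them (0.74 ± 0.12, 0.000208). Of 12 tested genes of other secreted neurotrophic factors 2 rose and 3 fell in the triple knockdown, near the 16.8% and 17.2% of all genes. Lif (-0.59 ± 0.07, 4.35e-07) and Ptn (-0.45 ± 0.10, 0.00113) were among those that fell, and Cdnf (1.48 ± 0.41, 0.00621) and Nrtn (0.84 ± 0.28, 0.0206) rose. Cdnf was low, with means of 9.1 and 4.26 with 50 and 150 nM scrambled siRNA and 12.6 in each knockdown. Ptn, pleiotrophin, rose in the Sec24B knockdown (0.63 ± 0.11, 0.000232). For Mrgprf, 1 of 14 listed Mas-related receptor genes was tested, Mrgpre, which did not pass in the triple knockdown (-0.36 ± 0.19, 0.139).

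**Figure D4:**
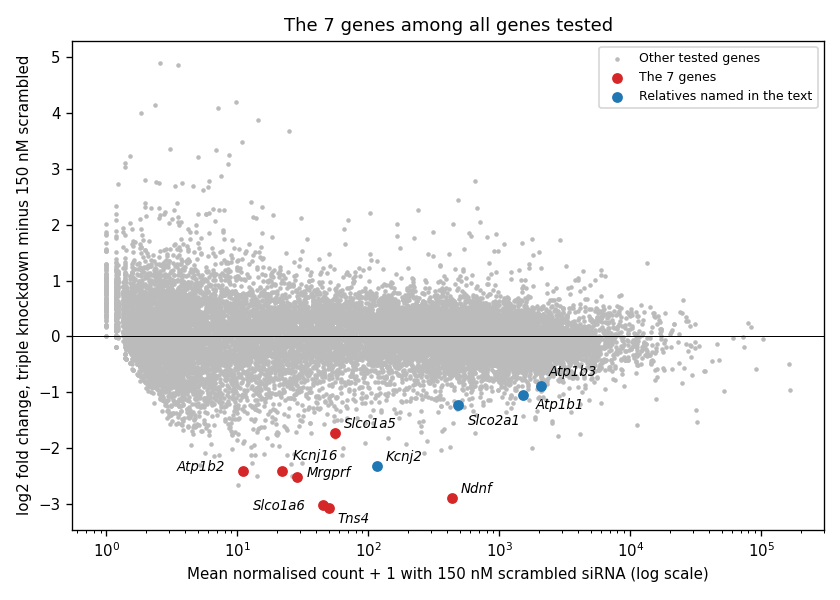
Each of the 19635 genes tested, by mean normalised count + 1 with 150 nM scrambled siRNA (x axis, log scale) and log2 difference of the triple knockdown from that control (y axis). The 7 genes (red) lie at the lower edge, from Atp1b2 with a mean of 10.1 to Ndnf with 437, and the relatives Kcnj2, Slco2a1, Atp1b1 and Atp1b3 (blue) lie between -2.32 and -0.89.

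Genes next to the 7 on the chromosome were looked at for falls that extend beyond a single gene. Kcnj2, described above, begins 38.2 kb from Kcnj16 and is its nearest tested neighbour on that side. Both were low in the triple knockdown, at 20.4% of the control mean for Kcnj2 and 14.3% for Kcnj16. On the other side, 442.5 kb away, Map2k6, a kinase that activates p38, fell as well (-1.05 ± 0.12, limma adjusted p = 1.15e-07). Of the 10 nearest tested genes around Kcnj16, 3 fell and 2 rose, beside 17.2% and 16.8% of all genes.

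Tnip3, an inhibitor of NF-kB signalling 37.55 kb from Ndnf, was at 11.5, 13.1, 7.71, 14.2 and 15.2 with 150 nM scrambled siRNA and at 1.94, 3.26, 6.64, 4.91 and 2.54 in the triple knockdown. It fell (-1.51 ± 0.31, 0.000503, limma), and its Sec24B value of -0.79 ± 0.33 did not pass (0.122). Of the 10 genes around Ndnf 2 fell and 2 rose, near the same background of 17.2% and 16.8%. Around the Slco1a pair, Pde3a, a phosphodiesterase gene 578.3 kb from Slco1a6, fell (-1.19 ± 0.20, 3.54e-05), whereas Pyroxd1, 22.7 kb from Slco1a5, did not pass (0.15 ± 0.08, 0.184). An antisense gene that lies within the span of Slco1a6 on the plus strand had -0.29 ± 0.35 and did not pass (0.576). Its exons share 0 bases with those of Slco1a6 in GENCODE M21, and the exons of Iapp, on the plus strand within the span of Slco1a5, share 0 with those of Slco1a5. The sources used here do not say whether the counting used strand.

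Igfbp4, 11.3 kb from Tns4 and a secreted binding protein of insulin-like growth factors, went the other way: it was at 446, 601, 585, 494 and 517 with 150 nM scrambled siRNA and at 1702, 1096, 1063, 1044 and 1252 in the triple knockdown. It rose (1.20 ± 0.10, 1.45e-09, limma) and had -0.02 ± 0.11 in the Sec24B knockdown (0.952). Ccr7, on the other side of Tns4, was near the detection limit with means under 2.71. Tpcn2, a lysosomal channel gene 16.8 kb from Mrgprf, fell (-0.58 ± 0.08, 6.45e-06). It was also higher at the higher scrambled dose (0.33 ± 0.09, 0.0206). Its means were 175 with 50 nM and 220 with 150 nM scrambled siRNA, and 146 in the triple knockdown. Beside Atp1b2, Trp53 (7.86 kb away) had 0.16 ± 0.05 (0.0120), a call lost in 2 of 29 other settings, and Sat2 did not pass (0.62 ± 0.25, 0.0570). Of the nearest tested genes, 3 of 10 fell and 1 rose around Tns4, 2 of 5 and 0 around Mrgprf, and 1 of 10 and 1 around Atp1b2. Around Slco1a6 2 of 9 fell and 1 rose, and around Slco1a5 3 of 9 and 0. Over all genes 17.2% fell and 16.8% rose.

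Across the 19 libraries, the genes whose levels were most like each of the 7 were ranked by Pearson's r of log2(normalised count + 1) among genes with a mean of at least 10. These libraries share 4 groups, so r mostly restates group differences and is a description. Slco1a5 was most like Sec24b (r = 0.977, and 0.743 once group means were removed), followed by Ddah1 (0.976) and St3gal5 (0.972). Both knockdowns targeted Sec24b and the 7 genes were chosen for falls there, so the r with Sec24b partly follows from the choice. Once group means were removed, r for the 21 most alike genes ran from 0.287 to 0.886. These genes were picked by r over the same libraries, which favours high values within groups too. Ndnf was most like Trp53inp2 (0.981, and 0.424 within groups), Gdf11 (0.977) and Tpm4 (0.972), and Slco1a6 most like Nfkb1 (0.959, and 0.423 within groups), Apcdd1 (0.956) and Uaca (0.956). Tns4 was most like Pkd1 (0.964, and 0.881 within groups), Mical2 (0.963, and 0.886 within groups) and Arid3a (0.962). Removing group means keeps differences between the libraries of a group. These within-group values include the Tns4 value of 0 in triple knockdown replicate 1, the library that stood apart. They were not computed without it. Among genes reported here, the highest r was with Plau (0.936) and Acta2 (0.934) for Mrgprf, and it was with Cntrob (0.946), Tle6 (0.906) and Tle2 (0.895) for Atp1b2. Kcnj16 was most like Baz1b (0.939), Cyfip1 (0.936) and Zfp532 (0.928).

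Among themselves, Ndnf, Slco1a6 and Slco1a5 were closest (r = 0.922 to 0.946 over 19 libraries), and Mrgprf and Atp1b2 had 0.824, while Slco1a5 and Atp1b2 had 0.487. Within groups most of this was gone: Slco1a5 and Slco1a6 had r = -0.09, Ndnf and Slco1a6 0.11, and Mrgprf and Atp1b2 0.16. Ndnf and Slco1a5 kept 0.60. With so few reads per library, counting error can lower such within-group values for the low genes, which was not tested.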

How the data were processed

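RNA of 19 libraries had been extracted with TRIzol and made into cDNA, per the labels' protocols. Per the submitters' processing notes, tools were TopHat2 2.0.8 and Partek 6.6, with FastQC 0.10.1 and Trimmomatic 0.27, and the builds are human (hg19, GRCh37). The gene IDs are mouse: 19685 of 19716 are in GENCODE M21, 99.0% of them with the same start and end in the file and in GRCm38, whose coordinates are used. The read counter, its strand setting and its treatment of reads that match several genes are not given in the sources used here.

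The deposited signal values are read counts that the authors divided by 1 factor per library. Dividing by the smallest step gave whole reads within 0.0055 for at least 99.99% of values per library. The log2 fold changes and adjusted p-values deposited by the authors were not used. As the values are scaled counts, limma 3.58.1 with an intensity trend (R 4.3.3) was fitted to log2(normalised count + 1) over all libraries with 4 group means, two-sided, with Benjamini-Hochberg adjustment over 19635 genes (81 removed) and a threshold of 0.05. The pseudocount of 1 makes differences of low genes smaller than the ratio of means. The fit was tested on simulated data. Alternatives were pseudocounts of 0.1 and 5, other low-value filters, TMM scaling, edgeR 4.0.16 and DESeq2 1.42.0 on recovered reads, fits of only the groups compared, a replicate block and leaving out libraries.

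The members and gene lists were chosen with earlier results of these data known. A test of the 7 genes between scrambled doses was planned, but its values are given as a description, since both groups entered the choice of the genes. Genes named besides the 7 were Sec24a to Sec24d, up to 4 tested relatives per list with the smallest adjusted p and close family members, the nearest tested gene on each side, the 3 most alike genes by Pearson's r, and other genes among the 10 largest falls; a few others are given for context. A few genes that this rule picks are not reported here. Intervals on reads are exact Poisson intervals (95%) and cover counting error only. Figures were drawn with matplotlib 3.10.9, and sequences handled with Biopython 1.88.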

Additional observations from a re-analysis of the deposited data

How the results depend on the processing

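The differences of the 7 genes between each knockdown and its control kept their sign in every setting run, except Atp1b2 in the Sec24B knockdown, which ran from -0.19 to 0.37 when 1 library was left out. Counts of genes called in either knockdown stayed within 1.5 times: 5388 to 6793 genes passed in the triple knockdown and 2132 to 4263 in the Sec24B knockdown, against 6680 and 2868. Between scrambled doses 1737 genes passed, and leaving out 1 library gave 899 to 2682. The lowest counts came without 50 nM replicates 1 (899), 2 (919) and 3 (1042) and 150 nM replicate 3 (1137), and the highest without triple knockdown replicate 1 (2682). Leaving out triple knockdown replicates 1 and 5 together, chosen after seeing the data, gave 3325. The triple knockdown libraries enter the dose comparison only through the spread shared by the groups in the fit. The causes of the other changes were not tested. Leaving out triple knockdown replicates 1 and 5 together left 4 of 5 pump genes and 14 of 18 tensin and adhesion genes lower in the triple knockdown. In that setting 6041 of 19635 genes passed in either direction. A pseudocount of 5 shrank the triple knockdown differences of the low genes, to -1.26 for Atp1b2 and -1.63 for Kcnj16, and 0.1 widened that of Atp1b2 to -3.56. Dose differences near 0 changed sign when 1 library was left out: Slco1a5 ran from -0.0215 to 0.0713 and Kcnj16 from -0.22 to 0.20. Of the 21 most alike genes, 19 were in the first 10 by recovered reads and 5 by Spearman's rho.

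Leaving out each library of the triple against Sec24B knockdown comparison, chosen after seeing the data, turned the sign for Tns4 without triple knockdown replicate 1 (0.16, from -0.49) and for no other of the 7.

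Replicate numbers do not pair the libraries: same-numbered libraries deviated together with correlations of -0.357 to 0.322, and none matched its own number best. With the replicate number as a block 6644, 2654 and 1414 genes passed in the triple knockdown, the Sec24B knockdown and between doses, and the Kcnj16 dose difference was -0.0502.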
